A study of Homo sapiens with 19 samples.

Results

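The 8 genes of the MHC class I pathway followed here through every library of the series were HLA-B, HLA-C, HLA-E, B2M, TAP1, TAP2, TAPBP and NLRC5. They were taken by name from the 62700 genes that each count file lists, by matching Ensembl identifiers to symbols, and all 8 were found and passed the filter on low counts. The libraries came from A549, an established human lung adenocarcinoma line, and were made by Smart-Seq2, a full-length method that primes on poly(A) tails. The sampled arm held 3 technical replicates of RNA drawn through hollow nanostraws by electroporation (NEE) from A549 monolayers. The lysates of spheroids and of monolayers each came from before NEE, right after it, and 2 h and 24 h after it, with 2 biological replicates at each time, which makes 16 lysate libraries. Lysate RNA and NEE-sampled RNA were purified with different kits, so the sampling route and the kit cannot be told apart.

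MHC class I molecules carry peptides from inside the cell to its surface, where cytotoxic T cells and natural killer cells read them. The heavy chain (here HLA-B, HLA-C and the non-classical HLA-E) pairs with beta-2-microglobulin, the product of B2M. TAP1 and TAP2 form the transporter that brings cytosolic peptides into the endoplasmic reticulum, tapasin (TAPBP) bridges the transporter and the empty heavy chain, and NLRC5 is the transactivator of class I genes. Interferon-gamma raises most of these genes in epithelial cells, partly through interferon response elements and the NLRC5-bound SXY module of their promoters.

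The genes lie at HLA-B 6:31269491-31357188, HLA-C 6:31268749-31272130, HLA-E 6:30489467-30494205, TAP1 6:32845209-32853978, TAP2 6:32821833-32838780 and TAPBP 6:33299694-33314387 in GENCODE 29 on GRCh38, with B2M at 15:44711487-44718877 and NLRC5 at 16:56989485-57083531. HLA-B as annotated there overlaps HLA-C on the same strand, and TAP1 overlaps PSMB9 on the opposite strand. Neither the annotation release nor the strand setting behind the deposited counts is given in the sources at hand. HLA genes are near-identical and polymorphic, so the split of reads between HLA-B and HLA-C is uncertain.

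The 250 bases before the start of transcription are shown for 2 heavy chain genes and 2 peptide loading genes, chosen by role. The sequences are from RefSeq on GRCh38.p14, which had an entry for 6 of the 8 genes, and capitals mark every match, on either strand, to the motifs named after them.
HLA-B (chr6.0:31357180.0-31357429.0, minus strand): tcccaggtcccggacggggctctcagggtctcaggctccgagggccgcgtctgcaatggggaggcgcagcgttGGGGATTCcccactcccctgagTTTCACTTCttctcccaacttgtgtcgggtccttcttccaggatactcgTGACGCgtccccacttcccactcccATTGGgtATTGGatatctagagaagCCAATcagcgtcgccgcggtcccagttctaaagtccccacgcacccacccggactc
HLA-C (chr6.0:31272093.0-31272342.0, minus strand): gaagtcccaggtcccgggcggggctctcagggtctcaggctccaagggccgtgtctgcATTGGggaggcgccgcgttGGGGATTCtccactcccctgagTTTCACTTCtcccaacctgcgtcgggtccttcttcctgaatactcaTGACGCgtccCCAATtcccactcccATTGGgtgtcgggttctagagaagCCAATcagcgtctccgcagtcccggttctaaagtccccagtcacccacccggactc
TAPBP (chr6.0:33314079.0-33314328.0, minus strand): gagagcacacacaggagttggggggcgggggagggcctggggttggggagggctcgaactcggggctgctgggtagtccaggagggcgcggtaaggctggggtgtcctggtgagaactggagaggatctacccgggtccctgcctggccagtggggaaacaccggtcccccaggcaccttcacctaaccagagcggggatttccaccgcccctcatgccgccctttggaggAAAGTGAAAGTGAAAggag
TAP1 (chr6.0:32853705.0-32853954.0, minus strand): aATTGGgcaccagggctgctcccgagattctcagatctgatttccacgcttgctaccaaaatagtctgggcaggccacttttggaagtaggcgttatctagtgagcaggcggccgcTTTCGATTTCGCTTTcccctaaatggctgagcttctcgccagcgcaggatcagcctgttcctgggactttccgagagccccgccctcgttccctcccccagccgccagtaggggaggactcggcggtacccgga

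The HLA-B and HLA-C windows both held the class I interferon response element GAAGTGAAA, read here on the other strand as TTTCACTTC, which 0.443% of 34788 RefSeq promoter windows of the same length hold. It ended 147 bases before the start in HLA-B and 143 bases before it in HLA-C. Both also held the kB core GGGGATTC, found in 0.765% of windows, the X2 box core TGACGC, found in 7.63%, and CCAAT or its complement, the Y box core, found in 32.0%. Of the other genes with an entry, TAP2 held the X2 box core, and B2M and TAP1 held the Y box core. The paired element AAANNGAAA, found in 9.21% of windows, lay in those of B2M, TAP1, TAP2 and TAPBP and in neither heavy chain window. In B2M, TAP1 and TAPBP the paired element occurred as 2 overlapping copies, 143 to 129 bases before the start in B2M, 134 to 120 in TAP1 and 19 to 5 in TAPBP, and in TAP2 as 1 copy. RefSeq also gave TAP1 another start, not shown, whose window held none of these motifs. Only the letters named were searched, so other forms of these motifs are not marked, and the matches describe the letters only.

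The 16 lysate libraries held 16031034 to 24571083 counts and the 3 NEE-sampled libraries 13626934 to 18512985, so that 3 counts, taken as the floor, correspond to 0.122 to 0.22 CPM, a level scaled to the library total. Replicate 1 of the monolayers before NEE stood apart. All 20 markers of natural killer and T cells were at their highest of the 16 lysates there and summed to 733 CPM, against 21.6 to 65.8 CPM in the other 15 lysates and 1.32 to 5.73 CPM in NEE-sampled RNA, where 8 of the 20 were at 0 in every library. The list of epithelial markers held keratins, EPCAM and CDH1, and also the enzyme genes AKR1B10, AKR1C1, ALDH1A1 and ALDH3A1, which do not mark epithelial identity. Of its 10 genes, 8 were at their lowest of the 16 lysates in replicate 1 of the monolayers before NEE. They summed with the rest of the list to 16740 CPM there, against 35690 to 60550 CPM in the other lysates. Comparisons were therefore led by the 6 libraries after NEE of each culture, and results that rest on that library are given in both ways. The part of other cells in its values was not tested. In bulk RNA, fewer cells of a type and less RNA per cell cannot be told apart.

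Per kilobase of transcript, B2M was the most abundant of the 8 genes in all 3 kinds of RNA, with medians of 602 CPM per kilobase in NEE-sampled RNA, 512 in spheroids after NEE and 258 in monolayers after NEE. In spheroids TAPBP followed at a median level of 170 CPM per kilobase, then HLA-C at 135 and HLA-E at 101, and neighbours in this order overlapped in their ranges. HLA-B at 24.9 and TAP1 at 19.1 CPM per kilobase also overlapped, and the lowest were NLRC5 at 2.77 and TAP2 at 1.35. In monolayers TAPBP had 106 CPM per kilobase, HLA-C 41.6 and HLA-E 40.7, and TAP1 at 21.6 stood above HLA-B at 4.65 without overlap. In NEE-sampled RNA, the medians of HLA-E (50.9 CPM per kilobase) and HLA-C (48.9) lay above that of TAPBP (25.9). The ranges overlapped, since TAPBP reached 40.9 while HLA-E went down to 39.2 and HLA-C to 35.1. TAP1 at 4.75, HLA-B at 4.47, NLRC5 at 0.492 and TAP2 at 0.389 made up the lower end, where TAP1 overlapped HLA-B and NLRC5 overlapped TAP2.

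**Figure D1:**
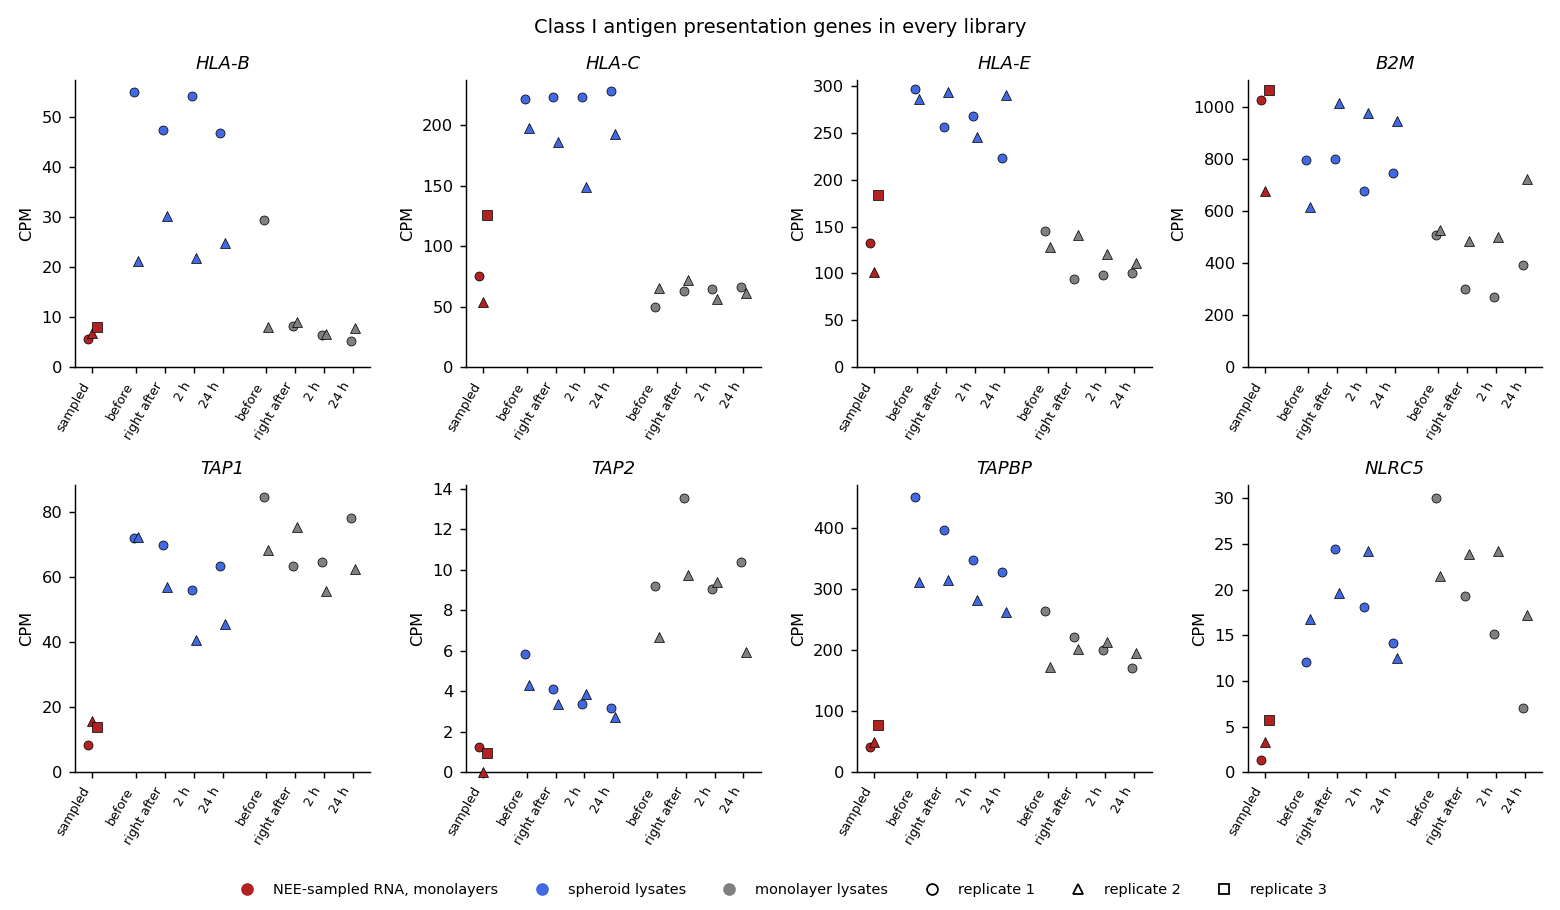
Level of each gene in CPM (vertical axis, from 0) in the 19 libraries, with NEE-sampled RNA on the left, spheroid lysates by time in the middle and monolayer lysates by time on the right; each point is 1 library and its shape the replicate number. The spheroid points of HLA-C and HLA-E lie above every monolayer point, those of TAP2 lie below, and all 3 NEE-sampled points of TAP1, TAP2, TAPBP and NLRC5 lie below both cultures.

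The first comparison asked how spheroid culture differs from monolayer culture. After NEE, with 6 libraries of each culture over 3 times, the heavy chains HLA-B, HLA-C and HLA-E, their partner B2M and the bridge TAPBP were higher in spheroids, and the transporter subunit TAP2 was lower. TAP1 and NLRC5 did not pass the test. By edgeR's quasi-likelihood test with adjustment over all 17822 genes tested, 5 of the 8 genes were called higher and 1 lower at an adjusted p under 0.05, against 6.0% of all genes tested called higher, 6.30% lower and 12.3% either way. The median log2 fold change was 0.89 over the 8 genes and 0.01 over all genes tested.

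HLA-B, a classical heavy chain, had 55.0 and 21.3 CPM in spheroids before NEE (replicate 1, then 2), 47.4 and 30.3 CPM right after, 54.3 and 22.0 CPM at 2 h, and 46.8 and 24.8 CPM at 24 h. In monolayers it had 29.4 and 8.14 CPM before NEE, 8.20 and 9.16 CPM right after, 6.58 and 6.58 CPM at 2 h, and 5.27 and 7.81 CPM at 24 h. Every spheroid library was above 7 of the 8 monolayer libraries, and replicate 1 of the monolayers before NEE lay inside the spheroid range. After NEE the mean was 37.6 ± 13.6 CPM in spheroids and 7.27 ± 1.39 CPM in monolayers (SD, n = 6 each). The fitted log2 fold change was 2.45 ± 0.37 with its SE (adjusted p = 0.000949). Within replicate 1 the log2 ratio of mean CPM was 2.89 and within replicate 2 it was 1.71, with no overlap between the cultures in either.

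HLA-C, the other classical heavy chain followed here, had 221 and 197 CPM in spheroids before NEE, 223 and 186 CPM right after, 223 and 149 CPM at 2 h, and 228 and 193 CPM at 24 h. In monolayers it had 49.9 and 65.8 CPM before NEE, 63.0 and 71.9 CPM right after, 64.9 and 56.3 CPM at 2 h, and 66.4 and 61.0 CPM at 24 h. The lowest spheroid library stood above the highest monolayer library by more than the whole monolayer range. The log2 fold change after NEE was 1.72 ± 0.15 (edgeR, adjusted p = 3.05e-05), with within-replicate log2 ratios of 1.80 and 1.48.

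HLA-E, a heavy chain that presents leader peptides of other class I molecules to natural killer cells, ranged over 223 to 293 CPM with a median of 262 in the 6 spheroid libraries after NEE and over 94.2 to 141 CPM with a median of 106 in the 6 monolayer libraries. Before NEE it had 296 and 286 CPM in spheroids and 145 and 128 CPM in monolayers. The cultures did not overlap at any time, and the log2 fold change after NEE was 1.31 ± 0.14 (edgeR, adjusted p = 9.75e-05).

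B2M, the light chain that all class I heavy chains need, had 801 and 1016 CPM in spheroids right after NEE, 679 and 974 CPM at 2 h, and 744 and 946 CPM at 24 h. In monolayers it had 302 and 487 CPM right after NEE, 268 and 501 CPM at 2 h, and 393 and 723 CPM at 24 h. Taken over both replicates the cultures overlapped, since replicate 2 of the monolayers at 24 h exceeded replicate 1 of the spheroids at 2 h. Within a replicate number they did not, with log2 ratios of 1.21 in replicate 1 and 0.78 in replicate 2, and the fitted log2 fold change was 1.03 ± 0.21 (edgeR, adjusted p = 0.00583).

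TAPBP, the tapasin gene, had 396 and 315 CPM in spheroids right after NEE, 348 and 283 CPM at 2 h, and 327 and 262 CPM at 24 h. In monolayers it had 221 and 201 CPM right after NEE, 200 and 213 CPM at 2 h, and 171 and 196 CPM at 24 h. The 6 spheroid libraries lay above the 6 monolayer libraries, and the log2 fold change was 0.75 ± 0.15 (edgeR, adjusted p = 0.00568). Before NEE the levels were 450 and 311 CPM in spheroids and 264 and 172 CPM in monolayers.

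The 2 transporter subunits differed from each other. TAP2 had 4.13 and 3.36 CPM in spheroids right after NEE, 3.37 and 3.87 CPM at 2 h, and 3.19 and 2.73 CPM at 24 h, against 13.5 and 9.72 CPM, 9.03 and 9.40 CPM, and 10.4 and 5.96 CPM in monolayers at those times. All spheroid libraries lay below all monolayer libraries, with counts of 48 to 80 in spheroids and 119 to 239 in monolayers after NEE, and the log2 fold change was -1.41 ± 0.26 (edgeR, adjusted p = 0.00316). With all 19 libraries in one fit the log2 fold change was -1.42 with an adjusted p of 0.0658. TAP1 had a median of 56.5 CPM (40.6 to 69.8) in spheroids and 63.9 CPM (55.8 to 78.0) in monolayers after NEE, groups that overlapped, with a log2 fold change of -0.20 ± 0.15 (adjusted p = 0.433). TAP2 made up 4.80% to 8.70% of the summed TAP1 and TAP2 counts in the 8 spheroid libraries and 8.72% to 17.6% in the 8 monolayer libraries, so the lowest monolayer library lay just above the highest spheroid library. TAPBP counts per TAP1 count were 4.30 to 6.96 in spheroids and 2.19 to 3.82 in monolayers, without overlap. These ratios were not tested and describe unequal levels of the genes within a library.

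NLRC5, the class I transactivator, had a median of 18.9 CPM (12.5 to 24.4) in spheroids and 18.2 CPM (7.09 to 24.3) in monolayers after NEE, and the log2 fold change was 0.15 ± 0.24 (edgeR, adjusted p = 0.765). The ranges overlapped, and the lowest library was a monolayer one.

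Counting libraries instead of fitting, the CPM of 5 of the 8 genes did not overlap between the 6 spheroid and the 6 monolayer libraries after NEE: HLA-B, HLA-C, HLA-E and TAPBP were higher and TAP2 lower. Over all genes tested 10.2% did not overlap either way, 3.62% higher and 6.60% lower in spheroids. The same 6 genes were called when all 4 times were used, where 19.9% of all genes tested were called (10% higher, 9.84% lower). HLA-B then had a log2 fold change of 2.14 ± 0.32, and 2.43 when the monolayer library that stood apart was left out (edgeR).

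Before NEE, with 2 libraries of each culture, HLA-C (log2 fold change 2.00 ± 0.26, adjusted p = 0.00383) and HLA-E (1.24 ± 0.24, adjusted p = 0.0267) were called higher in spheroids by edgeR, against 0.701% of all genes tested called higher and 1.30% called either way. HLA-E lost its call without replicate 1 of the monolayers (adjusted p = 0.108) and without replicate 1 or 2 of the spheroids (0.118 and 0.0942). TAPBP had a log2 fold change of 0.96 ± 0.26 (adjusted p = 0.084) and was called with the replicate number as a block (adjusted p = 0.0355), a fit that called 612 genes where the fit without the block called 231. HLA-B had a log2 fold change of 1.19 ± 0.61 (adjusted p = 0.354), and 2.38 without replicate 1 of the monolayers (adjusted p = 0.224). B2M (0.60), TAP1 (0.07), TAP2 (-0.49) and NLRC5 (-0.69) had adjusted p-values of 0.422 to 0.933.

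**Figure D2:**
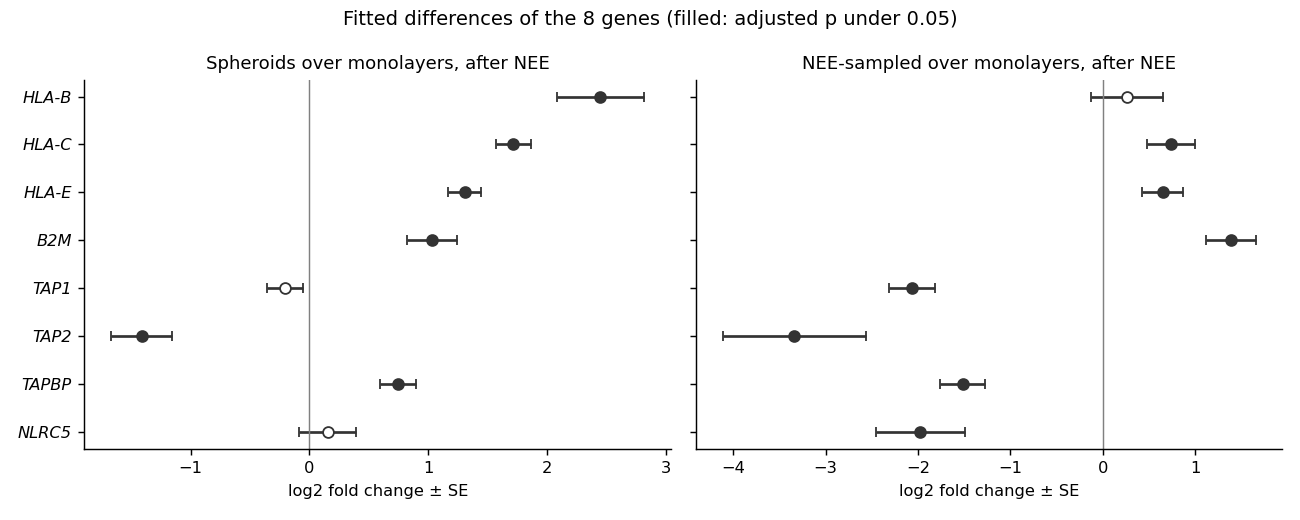
Fitted log2 fold change of each gene (horizontal axis) with its SE for spheroids over monolayers after NEE (left) and for NEE-sampled RNA over monolayers after NEE (right); filled points have an adjusted p under 0.05. In the left panel HLA-B, HLA-C, HLA-E, B2M and TAPBP lie right of 0 and TAP2 at -1.41 left of it; in the right panel B2M is at 1.39 and TAP1, TAP2, TAPBP and NLRC5 lie between -3.34 and -1.52.

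Partner genes of the pathway were read from lists of known members, and their counts in spheroids over monolayers stand beside 6.0% of all genes tested called higher and 6.30% lower; 1 of 14 is near that share. In spheroids against monolayers after NEE, 2 of 7 peptide loading and trimming genes were called higher: PDIA3, which encodes the ERp57 oxidoreductase of the loading complex (log2 fold change 0.78 ± 0.13, adjusted p = 0.00165), and TAPBPL, the tapasin-related peptide editor TAPBPR (1.51 ± 0.28, adjusted p = 0.00388). The chaperones CALR (0.27, adjusted p = 0.187) and CANX (0.06, adjusted p = 0.868) and the peptidases ERAP1 and ERAP2 did not pass the edgeR test. None of the 5 immunoproteasome and activator genes was called, with a list median of 0.44 and PSME1 alone under 0.05 before adjustment (log2 fold change 0.64, adjusted p = 0.075), and none of the 3 constitutive subunits was called, or passed that level. Of 7 class I-like genes tested, FCGRT, the neonatal Fc receptor heavy chain (1.69 ± 0.43, adjusted p = 0.0246), HLA-F (1.99 ± 0.44, adjusted p = 0.01) and MR1, which presents vitamin B metabolites (0.87 ± 0.17, adjusted p = 0.0046), were higher. MICB, a stress ligand of the NKG2D receptor, was lower, at a median of 4.42 CPM in spheroids and 19.4 CPM in monolayers (-1.66 ± 0.36, adjusted p = 0.00852).

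Among the 14 class I transcription genes, STAT2 alone was called higher in spheroids after NEE (log2 fold change 0.68 ± 0.20, edgeR adjusted p = 0.0422), and the list median was 0.07. Of 7 interferon receptor and kinase genes, IFNGR2 (1.52 ± 0.38, adjusted p = 0.0181) and JAK2 (1.29 ± 0.29, adjusted p = 0.0112) were higher. Of 15 interferon-stimulated genes tested, GBP2 (2.02 ± 0.40, adjusted p = 0.00546) and IFITM1 (2.10 ± 0.56, adjusted p = 0.0256) were higher and OAS3 (-1.22 ± 0.17, adjusted p = 0.000625) was lower, with a list median of 0.73. Their summed level was 194 to 288 CPM in spheroids and 199 to 296 CPM in monolayers after NEE. CXCL10, a chemokine induced strongly by interferon-gamma, was at 0 to 0.387 CPM across the spheroid libraries and 0 to 0.104 CPM across the monolayer libraries. These levels lie near the counting floor, and CXCL10 was not among the 15 genes tested. The part of interferon in the levels of this list was not tested.

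Markers of other cell types were read beside these results. After NEE the natural killer and T cell markers summed to 21.6 to 65.8 CPM in spheroids and 22.6 to 31.5 CPM in monolayers, the myeloid markers to 33.7 to 92.8 CPM and 13.0 to 29.7 CPM, and the class II genes with the invariant chain to 24.5 to 154 CPM and 9.92 to 26.9 CPM. CD14, one of the myeloid markers, was called higher in spheroids (log2 fold change 1.94 ± 0.58, edgeR adjusted p = 0.0482), as was the class II peptide loading gene HLA-DMB (2.88 ± 0.82, adjusted p = 0.0405). Of the 3 endothelial markers tested PECAM1 was called higher (1.47 ± 0.43, adjusted p = 0.0389), with a list sum of 2.71 to 4.28 CPM in spheroids and 0.731 to 2.77 CPM in monolayers. Of the 10 genes of the epithelial list, the enzyme gene AKR1C1 (0.83, edgeR adjusted p = 0.0383) and CDH1 (1.15, adjusted p = 0.0464) were called higher and KRT7 (-1.03, adjusted p = 0.00165) lower. Of the 10 myeloid markers, 2 were at 0 in all 6 spheroid libraries and 3 in all 6 monolayer libraries. The part of these levels in the class I result was not tested.

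Within spheroids HLA-B also differed by replicate number. The 4 libraries of replicate 1 had 46.8 to 55.0 CPM and the 4 of replicate 2 had 21.3 to 30.3 CPM, which do not overlap. HLA-C and TAPBP did not overlap either and were higher in replicate 1, and over all genes tested 8.77% did not overlap between the 2 sets of 4. A term for the replicate number, added after these values were seen, gave HLA-B a log2 fold change of 1.08 ± 0.33 for replicate 1 over replicate 2 (edgeR, adjusted p = 0.166), so it was not called, as was none of the 8 genes, against 1.61% of all genes tested; HLA-B, HLA-C and TAPBP were under an unadjusted p of 0.05. Among the genes called in that fit were the interferon-related genes GBP1 (1.92, adjusted p = 0.00591) and IFNGR1 (1.53, adjusted p = 0.00455), which were higher in replicate 1, and HLA-DMB (-3.08, adjusted p = 0.0012) and HLA-DMA (-1.87, adjusted p = 0.0148), which were lower. The replicate number in the labels is given as a batch, so biological and batch differences between the 2 cannot be told apart.

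The ratio of HLA-B to HLA-C counts followed these sets. It was 0.205 to 0.249 in replicate 1 and 0.108 to 0.163 in replicate 2 of the spheroids, and 0.0794 to 0.130 in the 7 monolayer libraries other than replicate 1 before NEE, where it was 0.588. NEE-sampled RNA had 0.0648 to 0.128. In that one monolayer library HLA-B was above every other monolayer library while HLA-C, at 49.9 CPM, was the lowest of the 16 lysates.

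**Figure D3:**
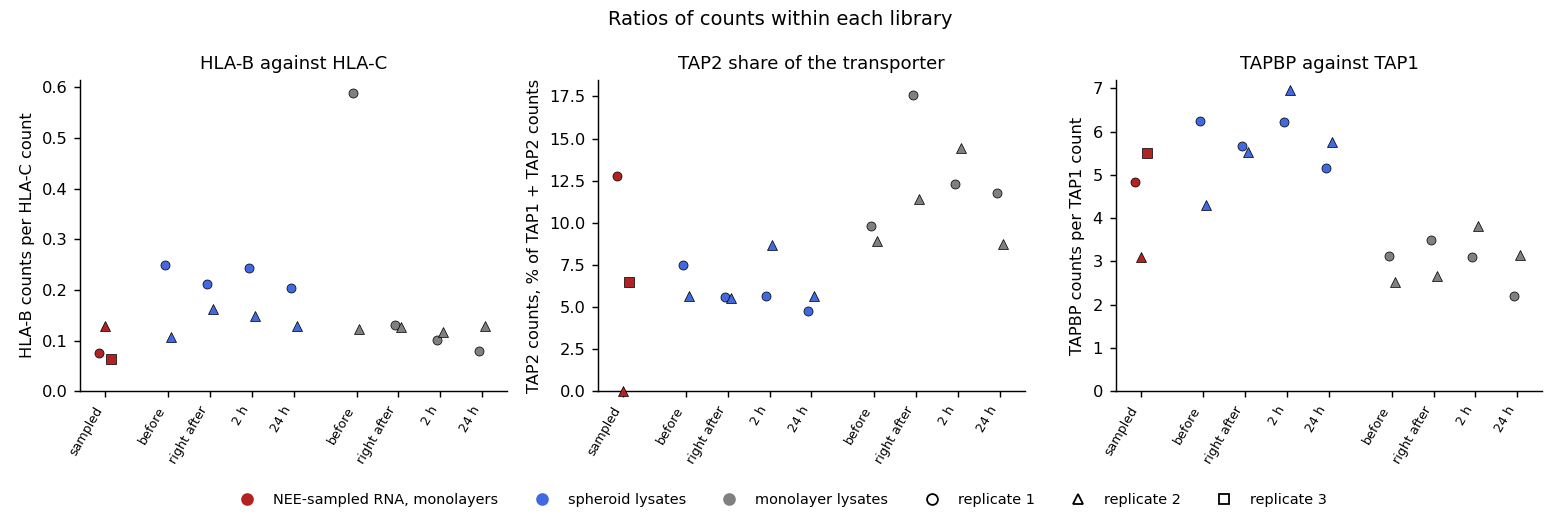
Ratios of counts within each of the 19 libraries: HLA-B counts per HLA-C count (left), TAP2 counts as a percent of TAP1 and TAP2 counts (middle) and TAPBP counts per TAP1 count (right), with NEE-sampled RNA, spheroids by time and monolayers by time from left to right. Replicate 1 of the monolayers before NEE is at 0.588 in the left panel, above all other libraries, and the spheroid points lie below the monolayer points in the middle panel and above them in the right panel.

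The second comparison asked whether the genes changed in the hours after NEE. None of the 8 genes was called at any time against before NEE in either culture. In spheroids the share of all genes tested that was called was 0% right after NEE, 0.0112% at 2 h and 0% at 24 h, and in monolayers it was 0% right after, 0.00561% at 2 h and 0% at 24 h (edgeR). DESeq2 called none of the 8 either. At an unadjusted p under 0.05, none of the 8 stood out right after NEE in either culture or at 24 h in spheroids, TAP1 did at 2 h in spheroids, HLA-B did at 2 h in monolayers, and HLA-B and NLRC5 did at 24 h in monolayers. The shares of all genes at that unadjusted level were 2.01%, 3.39% and 2.50% in spheroids and 2.25%, 3.39% and 4.42% in monolayers, in order of time.

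The values behind these 4 contrasts were as follows. TAP1 had 56.0 and 40.6 CPM in spheroids at 2 h and 72.0 and 72.2 CPM before NEE, a log2 fold change of -0.60 ± 0.26 (edgeR, adjusted p = 1). NLRC5 had 7.09 and 17.2 CPM in monolayers at 24 h and 30.0 and 21.5 CPM before NEE, a log2 fold change of -1.05 ± 0.42 (adjusted p = 1). For NLRC5 it became -0.80 without replicate 1 before NEE. HLA-B in monolayers had a log2 fold change of -1.45 ± 0.62 at 2 h and -1.49 ± 0.62 at 24 h, which became -0.26 and -0.30 without replicate 1 before NEE. Right after NEE it had the smallest p of the 8 genes in monolayers, with a log2 fold change of -1.07, and 0.12 without that library. The replicates of NLRC5 at 24 h in monolayers differed from each other by more than those at any other time.

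Over the 8 genes the log2 fold changes ran in spheroids from -0.48 to 0.58 right after NEE, -0.60 to 0.53 at 2 h and -0.85 to 0.20 at 24 h, and in monolayers from -1.07 to 0.59, -1.45 to 0.27 and -1.49 to 0.16. TAP2 at 24 h was the lowest in spheroids, with 3.19 and 2.73 CPM at 24 h and 5.82 and 4.33 CPM before NEE (-0.85 ± 0.45, edgeR, adjusted p = 1). TAPBP in spheroids was below its level before NEE in replicate 1 at 24 h, 327 against 450 CPM, and in replicate 2, 262 against 311 CPM. Its log2 fold change, from a fit that did not pair replicates, was -0.44 ± 0.26 and was not called (edgeR, unadjusted p = 0.113). The test of a different time course in spheroids than in monolayers called none of the 8 genes at any time, and 0% of all genes tested were called (edgeR; DESeq2 also called none of the 8). None of the 8 had an unadjusted p under 0.05 in it, against 2.90%, 3.11% and 3.52% of all genes tested right after NEE, at 2 h and at 24 h. TAP2 right after NEE came nearest, at -1.06 (adjusted p = 1). With 2 libraries at each time the SEs of the time contrasts were 0.26 to 0.62 for the values given, and differences of more than 2 SE, such as those of HLA-B and NLRC5 in monolayers at 24 h, were also not called.

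The third comparison set NEE-sampled RNA against monolayer lysates. B2M, HLA-C and HLA-E were higher in NEE-sampled RNA and TAP1, TAP2, TAPBP and NLRC5 were lower than in the 6 monolayer libraries after NEE, while HLA-B did not pass the test. That is 3 of 8 called higher and 4 lower by edgeR, against 20.8% of 17067 genes tested called higher, 25.0% lower and 45.8% either way. The median log2 fold change was -0.63 over the 8 genes and -0.21 over all genes tested. The 3 NEE-sampled libraries are technical replicates and were fitted as 3 libraries. Their technical spread and the spread between biological replicates of the monolayers go into one shared estimate behind the p-values. Biological spread of NEE-sampled RNA is not measured.

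Markers of other cell types also differed in this comparison. The class II genes with the invariant chain summed to 56.7 to 90.2 CPM in NEE-sampled RNA and 9.92 to 26.9 CPM in monolayers after NEE, without overlap. Of 5 tested, the class II peptide loading genes HLA-DMA (log2 fold change 2.46 ± 0.46, edgeR adjusted p = 0.000956) and HLA-DMB (2.79 ± 0.45, adjusted p = 0.000339) were called higher, and CD74, the invariant chain gene, and CIITA, the class II transactivator, lower. Of 14 natural killer and T cell markers tested 9 were called lower, with a list sum of 1.32 to 5.73 CPM in NEE-sampled RNA and 22.6 to 31.5 CPM in monolayers. Of 4 myeloid markers tested FCGR3A and ITGAM were called lower, with a list sum of 11.4 to 25.9 CPM in NEE-sampled RNA and 13.0 to 29.7 CPM in monolayers. Of the 10 genes of the epithelial list, the enzyme gene AKR1C1 and KRT19 were called higher, and the enzyme gene ALDH1A1 and CDH1 lower. The part of these levels in the class I result was not tested.

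B2M had 1026, 678 and 1064 CPM in the 3 NEE-sampled libraries, against 268 to 723 CPM (median 440) in the 6 monolayer libraries after NEE. The second NEE-sampled library lay inside the monolayer range. The log2 fold change was 1.39 ± 0.27 (edgeR, adjusted p = 0.00118), and 1.07 with library totals in place of scaling factors (adjusted p = 0.00461).

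HLA-C had 75.1, 53.9 and 126 CPM in NEE-sampled RNA and 56.3 to 71.9 CPM in monolayers after NEE, a log2 fold change of 0.74 ± 0.26 (edgeR, adjusted p = 0.0335). HLA-E had 132, 102 and 183 CPM in NEE-sampled RNA and 94.2 to 141 CPM in monolayers after NEE (0.65 ± 0.22, adjusted p = 0.031). Both calls rest on the scaling and on single libraries. Without the third NEE-sampled library the log2 fold changes were 0.32 (adjusted p = 0.300) and 0.38 (adjusted p = 0.207). The call on HLA-C was lost without any one of the 6 monolayer libraries after NEE (adjusted p 0.05 to 0.0780), and that on HLA-E without replicate 1 of the monolayers right after NEE, at 2 h or at 24 h, or without the first NEE-sampled library (adjusted p 0.0576 to 0.0903). With library totals in place of scaling factors HLA-C was at 0.41 (adjusted p = 0.193) and HLA-E at 0.33 (adjusted p = 0.231). With the replicate number as a block they were at 0.31 (edgeR, adjusted p = 0.316) and 0.39 (adjusted p = 0.199). That block matches technical replicates to lysates by number and leaves the third NEE-sampled library without a partner. Whether the numbers of the 2 kinds of RNA refer to the same batches is not stated. With the 3 technical replicates summed to 1, HLA-E had an adjusted p of 0.0656. The scaling factors were 0.822 to 0.877 in NEE-sampled RNA and 1.03 to 1.13 in monolayers.

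HLA-B had 5.72, 6.92 and 8.16 CPM in NEE-sampled RNA, within the 5.27 to 9.16 CPM of the 6 monolayer libraries after NEE (log2 fold change 0.26 ± 0.39, edgeR adjusted p = 0.617, and -0.05 with library totals). All 3 sampled libraries lay below the lowest spheroid library at 21.3 CPM.

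The peptide supply genes were low in every NEE-sampled library. TAP1 had 8.51, 15.8 and 14.0 CPM in NEE-sampled RNA and 55.8 to 78.0 CPM in monolayers after NEE, a log2 fold change of -2.06 ± 0.25 (edgeR, adjusted p = 5.07e-05). TAPBP had 41.2, 48.8 and 77.2 CPM in NEE-sampled RNA and 171 to 221 CPM in monolayers (-1.52 ± 0.24, adjusted p = 0.000326). In neither gene did a sampled library reach the lowest monolayer library.

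TAP2 had 17, 0 and 18 counts in NEE-sampled RNA, or 1.25, 0 and 0.972 CPM, and 119 to 239 counts, or 5.96 to 13.5 CPM, in monolayers after NEE (log2 fold change -3.34 ± 0.78, edgeR adjusted p = 0.00405). The count of 0 allows up to 0.21 CPM in that library, counting error only, and the library held 226 counts of TAP1. NLRC5 had 18, 48 and 107 counts, or 1.32, 3.35 and 5.78 CPM, in NEE-sampled RNA and 7.09 to 24.3 CPM in monolayers (-1.98 ± 0.48, adjusted p = 0.00544). The CPM of all 4 of these genes did not overlap between the 2 kinds of RNA, lower in NEE-sampled RNA, and over all genes tested 32.1% were lower without overlap and 49.2% did not overlap either way.

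Against the 2 monolayer libraries before NEE, B2M was called higher in NEE-sampled RNA (log2 fold change 1.22 ± 0.37, edgeR adjusted p = 0.022), and TAP1 (-2.20), TAP2 (-3.0), TAPBP (-1.57) and NLRC5 (-2.48) were called lower. HLA-C was at 0.94 ± 0.35 (adjusted p = 0.0513) and was called in 6 of 9 other settings, DESeq2 among them (adjusted p = 0.0177), and HLA-E was at 0.42 ± 0.30 (adjusted p = 0.282). Of all genes tested 15.6% were called higher, 22.5% lower and 38.0% either way. Without replicate 1 of the monolayers before NEE, 3 of the 8 genes were called in place of 5, as B2M had an adjusted p of 0.102 and TAP2 of 0.0571. The call on B2M was also lost without replicate 2 of those monolayers (adjusted p = 0.0523), without the first or the third NEE-sampled library (0.0532 and 0.0598), with library totals (0.0773) and with the technical replicates summed (0.0567). HLA-B was at -1.03 (adjusted p = 0.126) with both libraries before NEE, at 0.10 without replicate 1 and at -1.67 without replicate 2 (adjusted p = 0.0183).

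Transcript length moved with the difference between sampled RNA and lysates. Over all genes tested with a length in GENCODE 29, the median log2 fold change of NEE-sampled RNA over monolayers after NEE was 1.94 for 605 genes of up to 1000 bases, 0.74 for 2605 genes of up to 2000, -0.07 for 3097 genes of up to 3000, -0.57 for 3855 genes of up to 5000 and -0.88 for 3259 longer genes. The transcripts of HLA-C (1536 bases), HLA-B (1547), B2M (1705) and TAPBP (1888) fall in the second class, where the quartiles of all genes lay at -0.25 and 1.72. TAPBP at -1.52 lay below that span and B2M at 1.39 inside it. TAP2 (2497 bases), HLA-E (2601) and TAP1 (2959) fall in the third class, where the quartiles lay at -1.03 and 1.02, and TAP2 at -3.34 and TAP1 at -2.06 were below it. NLRC5 (6822 bases) was at -1.98, just under the lower quartile of -1.85 of its class. In spheroids over monolayers the medians of the 5 classes ran from -0.09 to 0.14. The part of length in these results was not tested.

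**Figure D4:**
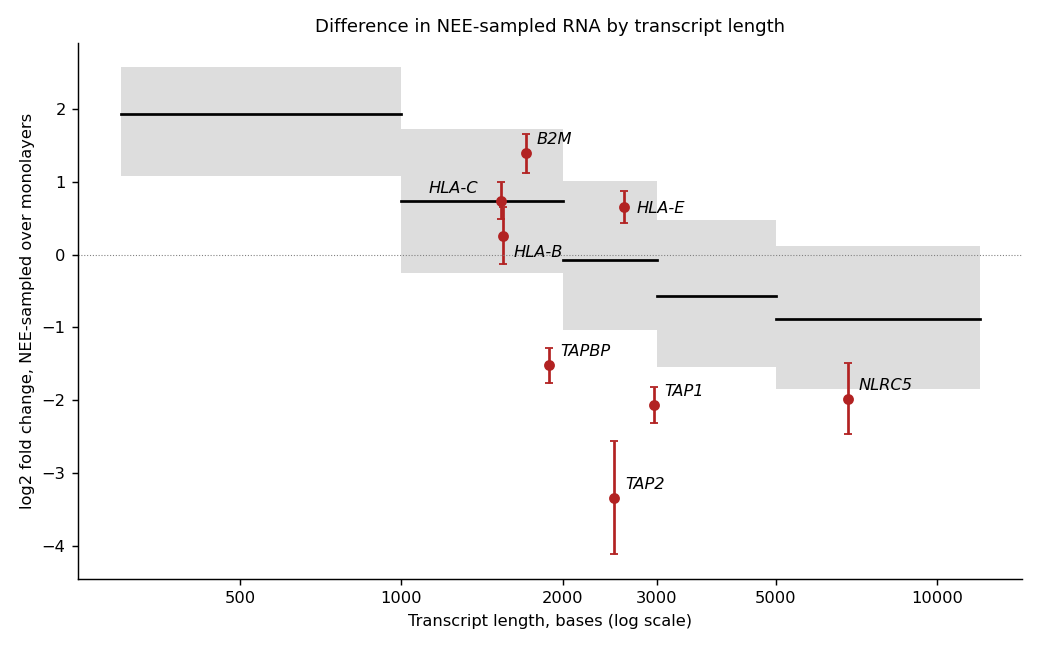
Log2 fold change of NEE-sampled RNA over monolayers after NEE (vertical axis) against transcript length in bases (log scale); red points are the 8 genes with their SE, black lines the median and grey boxes the quartile range of all genes tested in each length class, the outer classes being drawn to the edge of their box. Medians fall with length from 1.94 to -0.88, and TAPBP, TAP1, TAP2 and NLRC5 lie below the grey boxes of their classes.

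The partner genes split in the same comparison of NEE-sampled RNA with monolayers after NEE. In it 20.8% of all genes tested were called higher, 25.0% lower and 45.8% either way. Medians over all genes also fell with transcript length there, from 1.94 in the shortest class to -0.88 in the longest. The lengths of the partner genes were not set beside the values below, and the part of length in them was not tested. All 5 genes of the immunoproteasome and its activator were called higher, with a median of 1.64: the catalytic subunits PSMB8 (1.57 ± 0.34, adjusted p = 0.00251), PSMB9 (1.41 ± 0.31, adjusted p = 0.00288) and PSMB10 (1.69 ± 0.61, adjusted p = 0.0389) and the activator subunits PSME1 (1.64 ± 0.31, adjusted p = 0.0011) and PSME2 (1.91 ± 0.32, adjusted p = 0.000445). The 3 constitutive subunits that they replace, PSMB5 (1.26), PSMB6 (2.07) and PSMB7 (1.13), were also called higher. PSMB9 had 14.1 to 20.6 CPM in NEE-sampled RNA and 6.0 to 10.2 CPM in monolayers, while TAP1, which shares its promoter region on the other strand, was lower.

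Of 7 peptide loading and trimming genes 6 were called lower in NEE-sampled RNA, with a list median of -2.06. CANX, the calnexin gene, had 320 to 343 CPM in NEE-sampled RNA and 1313 to 1966 CPM in monolayers after NEE (-2.06 ± 0.19, edgeR adjusted p = 9.09e-06). PDIA3 had 78.8 to 148 CPM in NEE-sampled RNA and 729 to 944 CPM in monolayers (-2.58 ± 0.24, adjusted p = 1.02e-05). TAPBPL (-3.34), the glycoprotein quality sensor UGGT1 (-2.49), ERAP1 (-1.46) and CALR (-0.64) were the others, and ERAP2 was at -0.91 (adjusted p = 0.415).

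Of the class I transcription genes 2 of 14 were called higher in NEE-sampled RNA, RELA (0.71) and RFXANK (1.05), and 6 lower, among them IRF9 (-3.12), STAT2 (-1.28), NFYA (-1.26, edgeR adjusted p = 0.00283), CREB1 (-0.91) and RFX5 (-0.72). Of the 7 interferon receptor and kinase genes IFNGR2 was called higher (2.65 ± 0.39, adjusted p = 0.000177) and IFNAR1, IFNGR1, JAK1 and TYK2 lower. Of 14 interferon-stimulated genes tested 4 were called higher, ISG15 (2.83), IFI6 (2.92), IFITM1 (2.35) and IFITM3 (3.37), and 2 lower, GBP1 (-2.97) and OAS3 (-1.52), which together are near the share of all genes called. FCGRT (1.42 ± 0.45, adjusted p = 0.0217) was the one class I-like gene of 7 called.

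**Figure D5:**
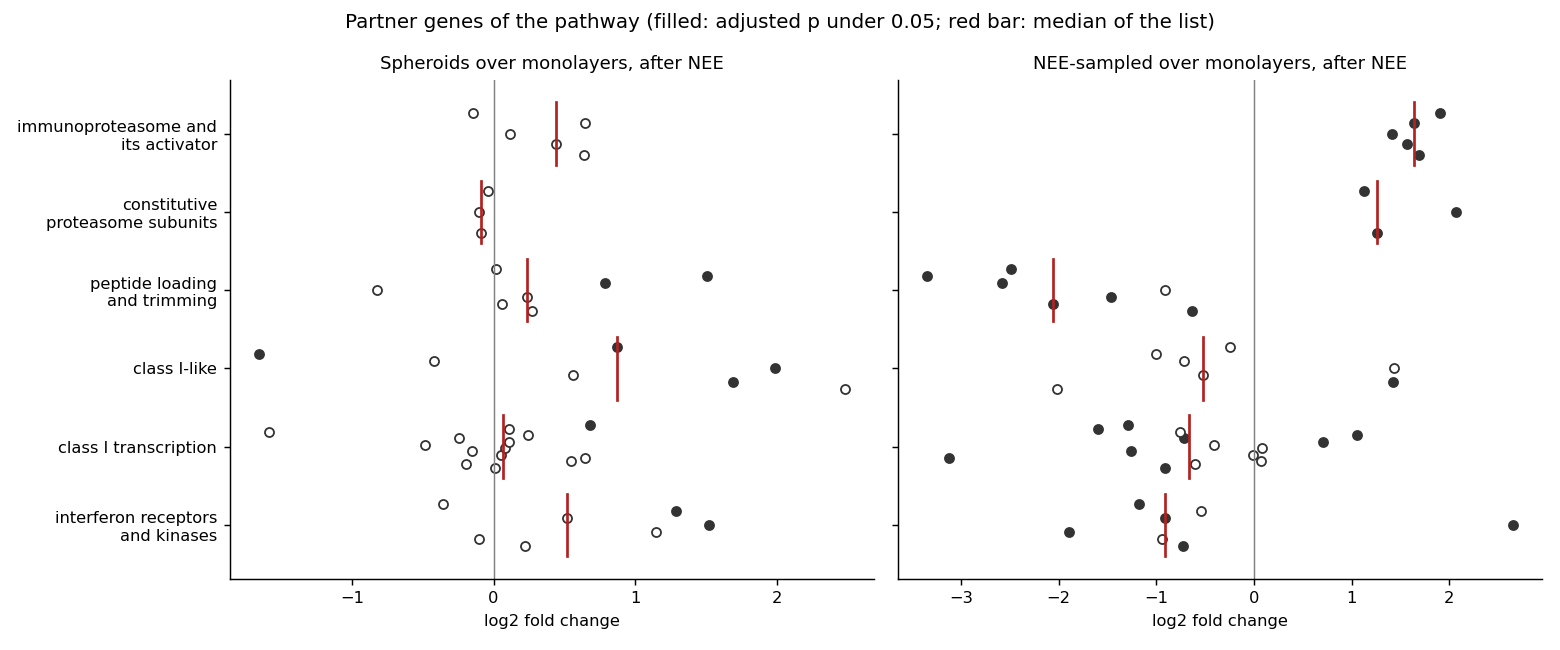
Log2 fold change (horizontal axis) of each tested partner gene, by list, for spheroids over monolayers after NEE (left) and NEE-sampled RNA over monolayers after NEE (right); filled points have an adjusted p under 0.05 and red bars are list medians. In the right panel the proteasome lists lie right of 0, with medians of 1.64 and 1.26, and peptide loading and trimming lies left of it, with a median of -2.06, while the left panel has list medians between -0.09 and 0.87.

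Across the 15 lysate libraries without replicate 1 of the monolayers before NEE, 4 of the genes followed the mean of the other 7 on the log2 scale, with Pearson's r of 0.918 for TAPBP, 0.876 for HLA-B, 0.826 for HLA-E and 0.821 for HLA-C. B2M had an r of 0.573, NLRC5 0.086, TAP1 -0.098 and TAP2 -0.739. These values describe 15 libraries of 2 cultures that share replicate numbers. The parts of culture and of replicate number in them were not tested. Of 9685 genes compared, those most like the mean of the 8 over the 15 libraries were SLFN5 (0.956), STC1 (0.954), SPP1 (0.951), HHIPL2 (0.949), CTSS (0.948), INSIG2 (0.945), SH3BP2 (0.942), FGA (0.939), FGG (0.938) and TMEM45A (0.938). Over all 16 lysates SLFN5 (0.954) and STC1 (0.951) again came first, and they were the 2 genes that both sets of 10 shared.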

How the data were processed

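Gene counts of 19 libraries were used as the authors deposited them: whole-number read counts per Ensembl gene, 62700 genes per file. Per the submitters' processing notes, FastQC, Trimmomatic, HISAT2 and featureCounts were used with GRCh38. What their versions, annotation release, strand setting and treatment of reads with several matches were is not given in the sources used here. One row per file that named no gene was left out. Symbols were taken from a gene name reference, with the GENCODE 29 name where it gave none, and GENCODE 29 placed 58207 of the genes. Levels are CPM of the library total, without scaling factors.

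Differences were fitted to the counts with edgeR 4.0.16 in R 4.3.3 (TMM scaling factors, filterByExpr, robust quasi-likelihood F-test, Benjamini-Hochberg adjustment over all genes tested, called at an adjusted p under 0.05). The 16 lysates were fitted together over 8 groups of 2, and NEE-sampled RNA with the 8 monolayers. The SE is the log2 fold change divided by the square root of F. DESeq2 1.42.0, other scalings and filters, leaving out each library, and the replicate number as a block were alternatives. The labels give the replicate number as a batch. The main fits held no term for it and did not pair the lysates, and a block on it was an alternative. Over 28 pairs of groups the correlation of same-numbered libraries' deviations over 8063 genes was -0.327 to 0.563 (median 0.210), and above 0.1 in 19 pairs. No 2 libraries of a group agreed within sampling noise. Per kilobase values use the longest principal coding transcript; counting floors cover counting error only.

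The rule for named genes took all 8 genes and, of the partner lists, the genes called, or up to 2 by smallest p where none was. Outside this rule, CALR, CANX, ERAP1, ERAP2 and CXCL10 are named for spheroids over monolayers, and ERAP2 for NEE-sampled RNA, without being called there. Partner lists were read in the comparisons after NEE, and some called markers of other cell types are given there as counts. One partner gene is not reported here. The genes and lists were chosen with earlier results of these data known.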

Additional observations from a re-analysis of the deposited data

How the results depend on the processing

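For spheroids over monolayers after NEE, the 6 called genes kept their direction under all 25 alternatives, and their calls under all but the fit of all 19 libraries, which lost TAP2. NLRC5 ran there from -0.021 to 0.422 without single libraries (0.15 with all), and over 4 times from -0.188 to 0.150 (-0.06 with all). With the replicate number as a block within each culture, NLRC5 was at 0.15 over 4 times. In that fit, among the 25 alternatives, spheroids over monolayers is the difference at replicate 1 and not a mean over both replicates. Before NEE 0 of the 8 genes were called when only the 4 libraries compared were fitted, against 2, and 1 to 2 without single libraries; TAP1, at 0.07, was at -0.084 with library totals and at -0.064 to 0.219 without single libraries. For NEE-sampled RNA over monolayers before NEE, 3 to 6 genes were called without single libraries, against 5. Without single libraries HLA-B ran from -1.703 to 0.116 right after NEE in monolayers and from -1.671 to 0.099 for NEE-sampled RNA over monolayers before NEE, positive when the monolayer library that stood apart was left out, and it was at -0.054 with library totals for NEE-sampled RNA over monolayers after NEE. Across all members and comparisons, 73 of the values with a library left out changed sign and 1617 kept direction and call. Why these values moved was not tested beyond the fewer samples fitted.

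The replicate block changed no call on the 8 genes other than TAPBP before NEE and HLA-C and HLA-E in NEE-sampled RNA. It moved the genes called before NEE to 612, against 231. Over all genes, calls before NEE were 0 to 1351 over alternatives (30 and 1193 when replicate 1 or 2 of those monolayers was left out), after NEE 1230 to 3306 against 2192, and in NEE-sampled RNA 4658 to 8686 against 7819 after NEE and 3957 to 7594 against 6493 before. Time contrasts called at most 132 genes (no filter) and at most 53 with DESeq2. The likeness list shared 2 of 10 genes with and without the library that stood apart. With 2 libraries at a time, and 0 to 18 TAP2 counts in NEE-sampled RNA, depth and number of samples limit these contrasts.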
